A study of Mus musculus with 6 samples.

Results

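The 10 genes described here encode signal transducers, feedback inhibitors and target kinases of cytokine signalling: Stat3, Stat4, Stat5a, Stat5b and Stat6, Socs1, Socs3 and Cish, and Pim1 and Pim2. They were chosen by name, with earlier results of these data known. All 10 were found among the 55487 genes of the deposited tables and passed the filter on low counts. That filter left 11950 genes for testing. Poly(A) RNA was sequenced in 6 libraries of naive CD4+ T cells, taken from spleens of C57BL6/J mice of wild-type genotype. Of these libraries 3 were from untreated animals and 3 from animals treated in vivo with rapamycin, a macrolide that inhibits the kinase mTOR. The labels give no dose, duration, age or sex, and do not say whether each library came from a separate mouse, so the spread that enters the p-values may be technical. The comparison asks how mTOR inhibition in the animal alters these resting cells.

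A cytokine that binds its receptor brings together Janus kinases, which phosphorylate STAT proteins. The STATs then pair, enter the nucleus and switch on genes. Among those genes are the SOCS family and Cish, whose proteins bind receptors or Janus kinases and dampen the signal, and the PIM kinases, which are active as soon as they are made, so that their amount is set largely by their RNA and protein level. In naive CD4+ T cells the best known input is interleukin 7, which acts through STAT5 and supports survival.

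Total expected counts per library were 9712671 to 11393317 in the untreated and 8757280 to 9315370 in the rapamycin group, where a floor of 3 counts corresponds to between 0.263 and 0.343 CPM (counts scaled to library size). Libraries of one group differed from each other by more than counting noise (a mean chi-square per gene of 1.743 to 2.001, where counting noise alone gives about 1), so none looked like a copy of another. The summed level of 9 naive CD4+ T cell markers was 5890 to 5980 CPM in untreated and 6020 to 6080 CPM in rapamycin libraries, with 3 of the 9 called higher and 5 lower, and Cd4 alone was 716 ± 11.6 and 687 ± 9.29 CPM (SD, n = 3). Markers of other cells were also present, and no defining marker of B cells, plasma cells or myeloid cells was at 0 in any library. The 5 B cell markers summed to 441 to 472 and 424 to 447 CPM, the 7 myeloid markers to 44.3 to 50.2 and 14.1 to 15.6 CPM, the 5 NK cell markers to 18.3 to 21.0 and 12.2 to 13.8 CPM, and the CD8 genes Cd8a and Cd8b1 to 19.1 to 20.5 and 87.9 to 91.0 CPM. The 3 markers of regulatory T cells summed to 7.53 to 8.93 and 11.1 to 14.3 CPM, and the 3 of plasma cells to 18.0 to 21.8 and 5.46 to 6.14 CPM. Of the regulatory T cell markers only Ikzf2 was called (log2 fold change 0.76). Foxp3 (1.63 and 1.91 CPM, 0.23) and Il2ra (0.66) did not pass the test. The 3 erythroid markers summed to 5.49 to 8.32 and 1.42 to 2.78 CPM, and of these lists only Alas2 was at 0 counts in a library. Of the markers of effector and memory T cells, Cd44 fell from 33.7 ± 2.31 to 10.7 ± 0.185 CPM (log2 fold change −1.65) and Tbx21 from 1.93 to 0.819 CPM (−1.21), Gata3 rose by 0.18 (length-corrected 0.13, not called), and Cxcr3 was below 1 CPM throughout, at 0 in 1 library. The part of all these cells in the results below was not tested. In such bulk samples fewer cells of a type and less RNA per cell cannot be told apart.

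With rapamycin 5 of the 10 genes rose, Pim1, Stat4, Pim2, Stat6 and Stat5b, and 4 fell, Socs1, Stat3, Socs3 and Stat5a, while Cish did not pass the test. A call means an adjusted p under 0.05 (edgeR, quasi-likelihood test, Benjamini-Hochberg over all genes tested). By that rule 47.4% of all genes were called, 24.1% higher and 23.3% lower. The 9 calls among 10 genes are set beside that share. Since the genes were chosen with earlier results of these data known, such shares do not test whether this family is unusual. The groups did not overlap in CPM for 8 of the 10 genes (5 above and 3 below), against 53.8% of all genes (26.9% above and 26.8% below). The median log2 fold change of the 10 was 0.16, beside −0.01 over all genes, and 0.05 with a correction for gene length. Both PIM kinases were higher and both SOCS genes lower, while the STATs went both ways.

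**Figure D1:**
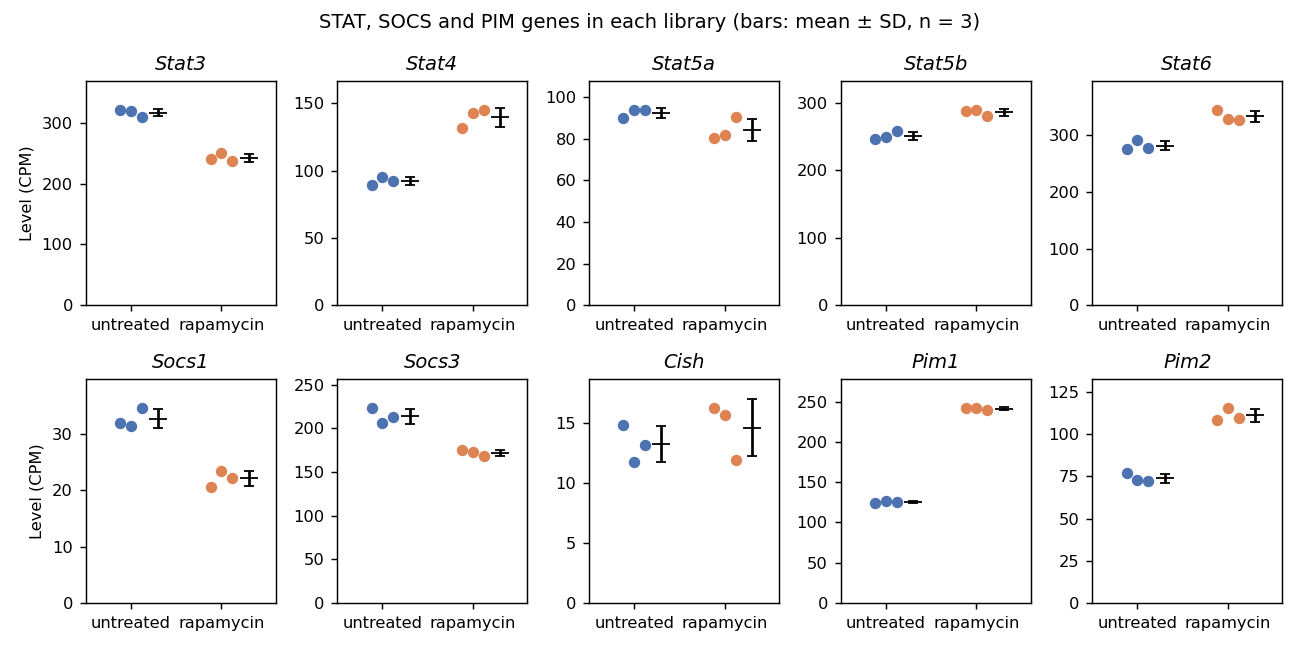
Level of each of the 10 genes in CPM (vertical axes, each from 0) in the 3 untreated and 3 rapamycin libraries. Points are libraries and bars are mean ± SD. Rapamycin points lie above all untreated points for Stat4, Stat5b, Stat6, Pim1 and Pim2, below them for Stat3, Socs1 and Socs3, and overlap for Stat5a and Cish.

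On the length-scaled TPM values, which allow levels of different genes to be compared, the order in untreated libraries was Stat6 (131 TPM), Socs3 (127), Stat3 (123), Pim1 (80.4), Stat5b (74.3), Pim2 (57.0), Stat4 (54.1), Stat5a (36.5), Socs1 (16.6) and Cish (5.95 TPM). The libraries of Stat6 and Socs3 overlapped, as did those of Socs3 and Stat3 and those of Pim2 and Stat4, so these neighbours are not ordered. In rapamycin libraries Pim1 stood second at 167 TPM, after Stat6 at 176 TPM. There Stat3 (120 TPM) and Socs3 (110 TPM) overlapped, as did Stat5b (94.9 TPM) and Pim2 (93.6 TPM). Stat4 was at 84.3, Stat5a at 36.4, Socs1 between 11.2 and 12.8 and Cish at 7.25 TPM.

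Among the signal transducers Stat4, which relays interleukin 12 and type I interferon and drives Th1 differentiation, had the largest rise. Stat4 (ENSMUSG00000062939, mm10 chromosome 1, 51987148 to 52107189) was at 89.6, 95.4 and 92.0 CPM in untreated and 132, 143 and 145 CPM in rapamycin libraries. All rapamycin libraries lay above all untreated ones, and the log2 fold change was 0.60 ± 0.04 (SE, adjusted p = 4.7e-18). Il12rb1, a chain of the interleukin 12 receptor and chosen for mention after its values were seen, was at 3.56, 4.66 and 4.98 CPM against 1.97, 1.01 and 1.51 CPM and fell (log2 fold change −1.54 ± 0.30, adjusted p = 1.9e-05), and Il12rb2 was too low to be tested. NK cells and CD8+ T cells also express Stat4. The summed NK cell markers were lower in every rapamycin library, although Eomes, one of them, was at 7.13 ± 0.449 and 9.17 ± 0.943 CPM (SD, n = 3) without passing the test, and the CD8 genes were higher. Their part in the change of Stat4 was not tested.

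Stat6, which relays interleukin 4 (ENSMUSG00000002147, mm10 chromosome 10, 127642986 to 127660957), was the highest of the family by TPM. It was at 277, 291 and 278 CPM in untreated and 344, 328 and 328 CPM in rapamycin libraries. The groups did not overlap, with a log2 fold change of 0.24 ± 0.03 (adjusted p = 1.0e-10). On TPM the rise of Stat6 was larger, at 0.43 by limma on log2(TPM + 1). That scale moved the median of all genes by 0.10 relative to the counts. The deposited length of Stat6, described below, was also shorter in rapamycin libraries (log2 difference −0.08). Its 3′ end overlaps that of Nab2 on the other strand, and whether the counting used strand is not given in the sources used here.

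Stat3, which relays interleukin 6 and its relatives (ENSMUSG00000004040, mm10 chromosome 11, 100885098 to 100939540), went the other way on counts. Its level was 321, 320 and 310 CPM in untreated and 240, 250 and 237 CPM with rapamycin, for a log2 fold change of −0.39 ± 0.03 (adjusted p = 6.5e-18). The 2 groups did not overlap in CPM. In TPM they did, at 126, 126 and 119 TPM against 109, 125 and 124 TPM, and the test on log2(TPM + 1) gave −0.05 ± 0.06 (adjusted p = 0.599). That scale moved the median of all genes by 0.10 relative to the counts. TPM divides by effective length, and the deposited length of Stat3, an average over its transcripts weighted by their estimated abundance (14 are annotated), differed between the groups. It was 3603, 3592 and 3676 bases in untreated and 3322, 3050 and 2926 bases in rapamycin libraries, with no overlap (exact permutation test, two-sided, p = 0.1, the lowest value open to 3 against 3 libraries). The difference of −0.23 in log2 length stood at percentile 3.85 of the genes tested. Over all genes tested, the lengths of all rapamycin libraries were below those of all untreated ones in 8.54% and above in 6.11%.

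**Figure D2:**
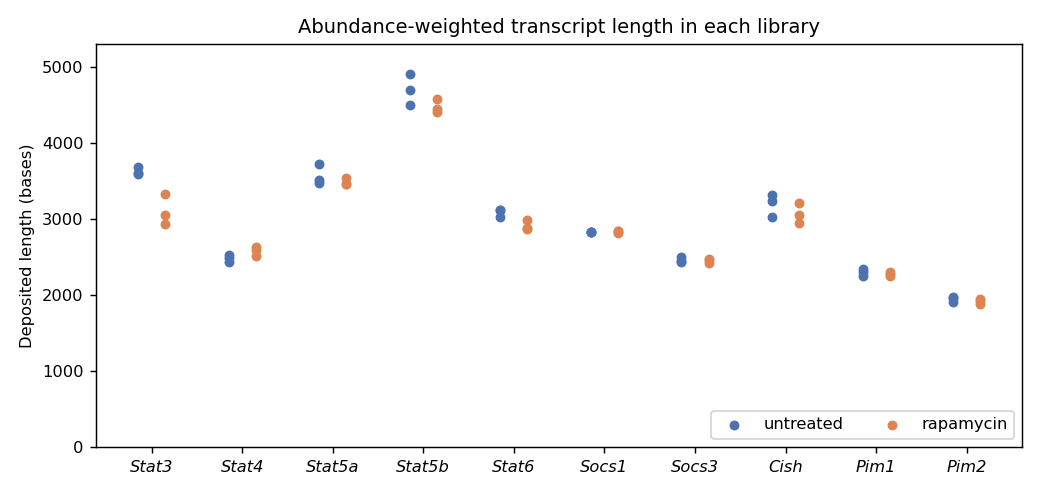
Deposited abundance-weighted transcript length in bases (vertical axis) of each of the 10 genes. Points are single libraries, untreated on the left and rapamycin on the right of each pair. Stat3 spans 3592 to 3676 bases in untreated and 2926 to 3322 bases in rapamycin libraries, and Stat6 is the other gene whose groups do not overlap.

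Of the other 9 genes, Stat6 also had shorter lengths in every rapamycin library, with means of 3081 ± 51.2 and 2908 ± 63.4 bases (SD, n = 3, exact two-sided permutation p = 0.1). The lengths of Stat4, Stat5a, Stat5b, Socs1, Socs3, Cish, Pim1 and Pim2 overlapped between the groups. The counts of Stat3 were whole numbers in all 6 libraries, so there was no sign of reads divided between it and another gene. Stat3 and Stat5a overlap end to end by 72 bases on opposite strands.

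Stat5a and Stat5b, the pair of near-copies that relay interleukin 7 and interleukin 2, lie side by side on chromosome 11, 8626 bases apart. Their counts, like those of Stat4 and Pim1, were not whole in any library. RSEM had thus divided some reads among genes, which adds uncertainty to each of these genes. Stat5b (ENSMUSG00000020919, mm10 chromosome 11, 100780731 to 100850724) was at 247, 249 and 258 CPM in untreated and 288, 289 and 281 CPM in rapamycin libraries. Its groups did not overlap, and the log2 fold change was 0.19 ± 0.03 (adjusted p = 1.9e-07). By deposited transcript length Stat5b is the longest of the 10 genes, with a mean of 4586 bases, and the 1369 tested genes of like length had a median log2 fold change of 0.14. With a correction for gene length its change was 0.02 ± 0.03 (adjusted p = 0.604), which ended the call. By limma on log2(TPM + 1) the change of Stat5b was 0.35 ± 0.05 and stayed called (adjusted p = 0.0018), on a scale that moved the median of all genes by 0.10.

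Stat5a (ENSMUSG00000004043, mm10 chromosome 11, 100859351 to 100885169) was at 89.6, 93.5 and 93.6 CPM in untreated and 80.2, 81.8 and 90.3 CPM in rapamycin libraries. The third rapamycin library lay within the untreated range, and the log2 fold change was −0.13 ± 0.05 (adjusted p = 0.0235). This call was lost without untreated replicate 2 (−0.13) or replicate 3 (−0.13), without rapamycin replicate 1 (−0.10) or replicate 2 (−0.11), and with DESeq2 (adjusted p = 0.104). On log2(TPM + 1) the change was −0.005. The 2 genes added together changed by 0.10 ± 0.03 (adjusted p = 0.0011), or by −0.02 ± 0.03 with the length correction (adjusted p = 0.552). By limma on log2(TPM + 1), which moved the median of all genes by 0.10, the sum changed by 0.24 ± 0.04 (adjusted p = 0.0023).

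Within each library the ratio of Stat5a to Stat5b in TPM was 0.494, 0.459 and 0.523 in untreated and 0.365, 0.357 and 0.433 in rapamycin libraries. It was lower in 3 of 3 rapamycin libraries than in any untreated one, with a log2 difference of −0.36 and an exact two-sided permutation p of 0.1. This was 1 of 3 such ratios tested, and all 3 had that p, so that the adjusted value is also 0.1.

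**Figure D3:**
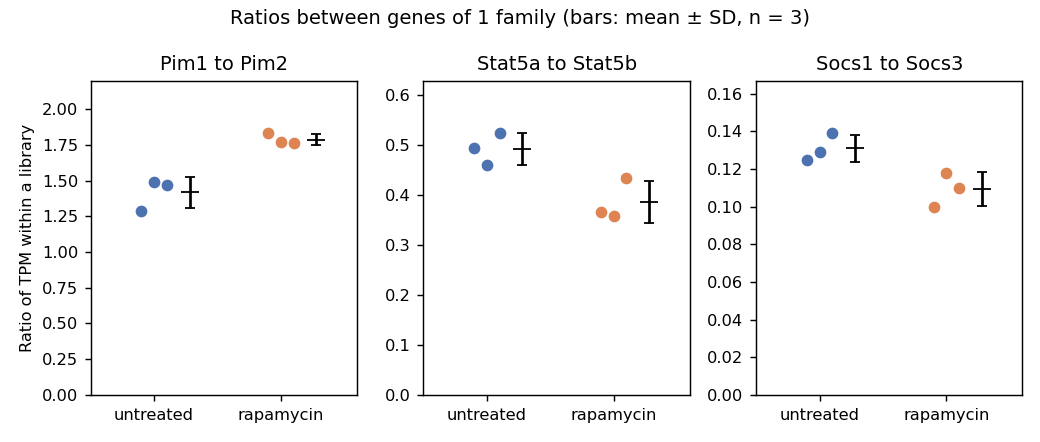
Ratio of TPM between 2 genes within a library (vertical axes, each from 0) for Pim1 to Pim2, Stat5a to Stat5b and Socs1 to Socs3. Points are libraries and bars are mean ± SD. In each panel the 3 rapamycin libraries do not overlap the 3 untreated ones, with Pim1 to Pim2 rising from 1.41 to 1.79 on average and the other ratios lower.

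Of the feedback inhibitors, Socs1, which blocks Janus kinases directly and is a brake on interferon gamma and common gamma chain cytokines, had the largest fall. Socs1 (ENSMUSG00000038037, mm10 chromosome 16, 10782240 to 10785536) was at 32.0, 31.4 and 34.6 CPM in untreated and 20.6, 23.5 and 22.1 CPM in rapamycin libraries. No rapamycin library reached the lowest untreated one, and the log2 fold change was −0.56 ± 0.09 (adjusted p = 3.0e-07). Its 250 bases upstream of the RefSeq start (GRCm38.p6, chr16:10785537-10785786, minus strand) are shown because they hold a pair of overlapping matches to an interferon regulatory factor element, in capitals. The element was spelled as GAAA, any 2 bases, and GAAA again.
Socs1 upstream: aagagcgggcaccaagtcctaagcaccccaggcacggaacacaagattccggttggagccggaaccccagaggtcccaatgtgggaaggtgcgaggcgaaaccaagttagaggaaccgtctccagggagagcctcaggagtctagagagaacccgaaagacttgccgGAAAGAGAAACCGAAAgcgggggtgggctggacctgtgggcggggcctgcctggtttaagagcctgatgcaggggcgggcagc
The matches lie 83 to 74 and 77 to 68 bases before the start and share 4 bases. On both strands, 2.98% of 32851 RefSeq promoter windows of this length held at least 1 such match and 0.18% held 2 or more. The element was chosen after the promoters were seen, so these shares do not measure how unusual the matches are. The same element occurred in 1 other window of the 10 genes, 97 to 88 bases before the second start of Stat4.

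Socs3, an inhibitor that binds the interleukin 6 receptor chain gp130 (ENSMUSG00000053113, mm10 chromosome 11, 117966079 to 117970047), was the most abundant SOCS gene by TPM. It was at 223, 206 and 213 CPM in untreated and 175, 173 and 168 CPM in rapamycin libraries. All rapamycin libraries lay below all untreated ones, with a log2 fold change of −0.32 ± 0.03 (adjusted p = 2.8e-12). Socs3 is also made by myeloid cells, whose 7 markers together were at most 50.2 CPM in any library. Of the 7 markers 6 were called lower in the rapamycin group, and Cd68 went from 1.6 to 1.04 CPM without passing the test. The part of these cells in the change of Socs3 was not tested. The letters TTCNNNGAA, the spacing most STAT proteins prefer, occurred once in its 250 upstream bases, and the match is shown in capitals within 30 bases (GRCm38.p6, chr11:117969501-117969530, minus strand).
Socs3 upstream: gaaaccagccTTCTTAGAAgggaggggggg
The match ran from 154 to 146 bases before the start, and 7.02% of all promoter windows held 1 or more. No other window of the 10 genes held TTCNNNGAA, and none held TTC and GAA with 4 bases between them, the wider spacing that STAT6 prefers, which 5.85% of all windows did. Several windows lay partly within exons that GENCODE gives the same gene. These covered 77 bases for Socs3, 175 and 139 for the 2 Stat5a windows and 143 for the first of Stat5b. For Cish they covered all 250, so the bases before its GENCODE start were not searched. The ratio of Socs1 to Socs3 in TPM went from 0.131 ± 0.00713 to 0.109 ± 0.00876 (SD, n = 3 in each group, exact two-sided permutation p = 0.1), a log2 difference of −0.26.

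Cish, the classical STAT5 feedback gene (ENSMUSG00000032578, mm10 chromosome 9, 107296026 to 107302784), was the lowest of the 10. Its counts were 171, 124 and 130 in untreated and 149, 139 and 103 in rapamycin libraries, and its levels 14.8, 11.8 and 13.2 CPM against 16.3, 15.7 and 11.9 CPM. The groups overlapped, and the log2 fold change of 0.14 ± 0.13 did not pass the test (adjusted p = 0.397). It passed in none of the 18 alternative fits, in which the change ran from 0.06 to 0.28. At this depth a difference of that size in Cish was not detectable.

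The PIM kinases, which support survival and growth by phosphorylating targets shared in part with AKT, were both higher, and Pim1 had the largest change and the smallest p of the 10 genes. Pim1 (ENSMUSG00000024014, mm10 chromosome 17, 29490753 to 29496112) was at 124, 127 and 126 CPM in untreated and 242, 242 and 239 CPM in rapamycin libraries. The libraries of each group were within a few CPM of each other and far from the other group, with a 1.93-fold higher mean and a log2 fold change of 0.94 ± 0.03 (adjusted p = 4.1e-33). By p-value Pim1 ranked 40 of 11950 genes, and 3.63% of the genes were called with a change as large in either direction. Under the 18 alternatives its change ran from 0.90 to 1.06. An antisense transcript, Gm26885, overlaps the 5′ end of Pim1, with a mean count of 52.8 per library.

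Pim2 (ENSMUSG00000031155, mm10 chromosome X, 7878262 to 7883432) was at 76.9, 72.7 and 72.1 CPM in untreated and 109, 116 and 109 CPM in rapamycin libraries. All rapamycin libraries were above all untreated ones, with a log2 fold change of 0.59 ± 0.05 (adjusted p = 3.7e-16). The ratio of Pim1 to Pim2 in TPM was 1.29, 1.49 and 1.47 in untreated and 1.83, 1.77 and 1.76 in rapamycin libraries, higher in 3 of 3 rapamycin libraries than in any untreated one (log2 difference 0.34, exact two-sided permutation p = 0.1). The third kinase gene of the family, Pim3, was at 39.6 ± 2.75 CPM against 43.9 ± 1.43 CPM in rapamycin libraries and did not pass the test (0.15 ± 0.07, adjusted p = 0.0795), except without untreated replicate 3 (0.19, adjusted p = 0.0454).

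FOXO factors, which AKT restrains, are active in resting T cells, and the letters TGTTTAC of their binding element were searched on both strands. Among the 14 RefSeq windows of the 10 genes they occurred once, upstream of the second of 2 start sites of Pim1, inside the gene (GRCm38.p6, chr17:29493004-29493033, plus strand), and are shown in capitals in the reverse orientation.
Pim1 internal start: ccccaaagtttGTAAACAggaatcacgtgg
The match lay 70 to 64 bases before that start, and 3.17% of all windows held at least 1. This element too was chosen after the promoters were seen, so that share does not measure how unusual the match is. The deposited tables do not separate transcripts from the 2 starts.

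The plot of the change of each gene under 3 fits sets the counts, the length correction and TPM side by side. The fragments were longer in the rapamycin libraries, since deposited length less effective length, which approximates their mean size, was 239 to 240 bases in untreated and 251 to 257 bases in rapamycin libraries. With the length correction 4 of the 10 genes were higher and 4 lower, against 20.2% and 18.3% of all genes (38.5% in either direction). Pim1 was then at 0.96, Pim2 at 0.64, Stat4 at 0.59, Stat6 at 0.20, Stat3 at −0.46, Socs1 at −0.59, Socs3 at −0.32 and Stat5a at −0.22.

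**Figure D4:**
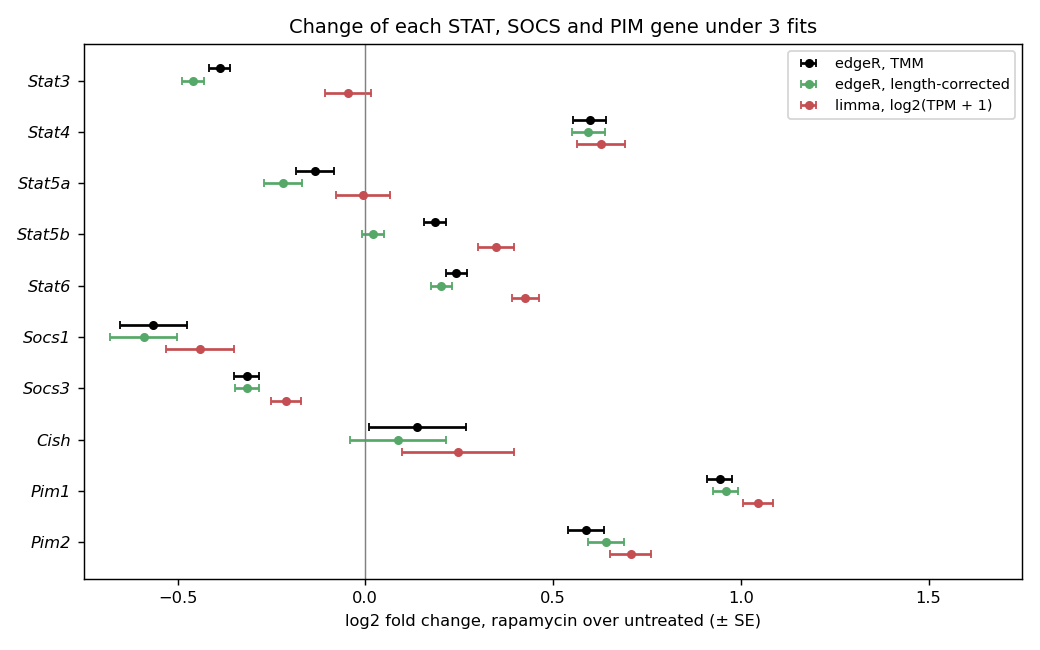
Log2 fold change, rapamycin over untreated, of each of the 10 genes (horizontal axis), as estimate ± SE from edgeR on counts (black), edgeR with a length correction (green) and limma on log2(TPM + 1) (red). Pim1, Pim2, Stat4, Stat6, Socs1 and Socs3 keep their side of 0 by more than 1 SE in all 3, whereas Stat3 and Stat5a reach 0 on TPM and Stat5b reaches it with the length correction.

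The rest of the pathway was described from lists that name its other parts, also chosen with earlier results of these data known. Each count below is set beside the 24.1% of all genes called higher and 23.3% called lower (20.2% and 18.3% with the length correction). Stat2, which relays type I interferon, changed by −0.22 on counts (adjusted p = 6.3e-04) and by 0.12 on log2(TPM + 1), where it was not called. Of the 5 SOCS genes outside the 10, Socs4 rose by 0.23 and Socs7 by 0.16, but with the length correction they were at −0.05 and −0.12 and no longer called. The call of Socs7 was also lost without untreated replicate 1 (0.155) or replicate 2 (0.15) and without rapamycin replicate 2 (0.125), as well as with upper-quartile or no composition factors, no filter, DESeq2 and TPM. Socs2, another STAT5 target, had 6, 5 and 1 counts in untreated and 0 in each rapamycin library and was too low to be tested. Socs5 and Socs6 did not pass the test.

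Janus kinases were split. Jak3, which pairs with the common gamma chain, fell from 257 ± 6.91 to 149 ± 1.59 CPM (log2 fold change −0.78 ± 0.03), and so did the gene for that chain, Il2rg, from 590 ± 6.80 to 475 ± 3.21 CPM (−0.31 ± 0.02). Jak1, the partner of Jak3 on these receptors, rose from 1010 ± 6.77 to 1260 ± 12.7 CPM (0.31, length-corrected 0.15), and Jak2 by 0.32 (length-corrected 0.14), while Tyk2 did not pass the test. Of 19 cytokine receptor chains 18 were tested, 9 rose and 6 fell, with a median of 0.19 (length-corrected 7 higher, 6 lower and a median of 0.07). Il7r rose by 0.82, Il6ra by 0.36 (length-corrected 0.16), and Il21r changed by −0.38. The same libraries thus had more RNA of the interleukin 7 receptor chain and less of the shared chain and of Jak3.

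**Figure D5:**
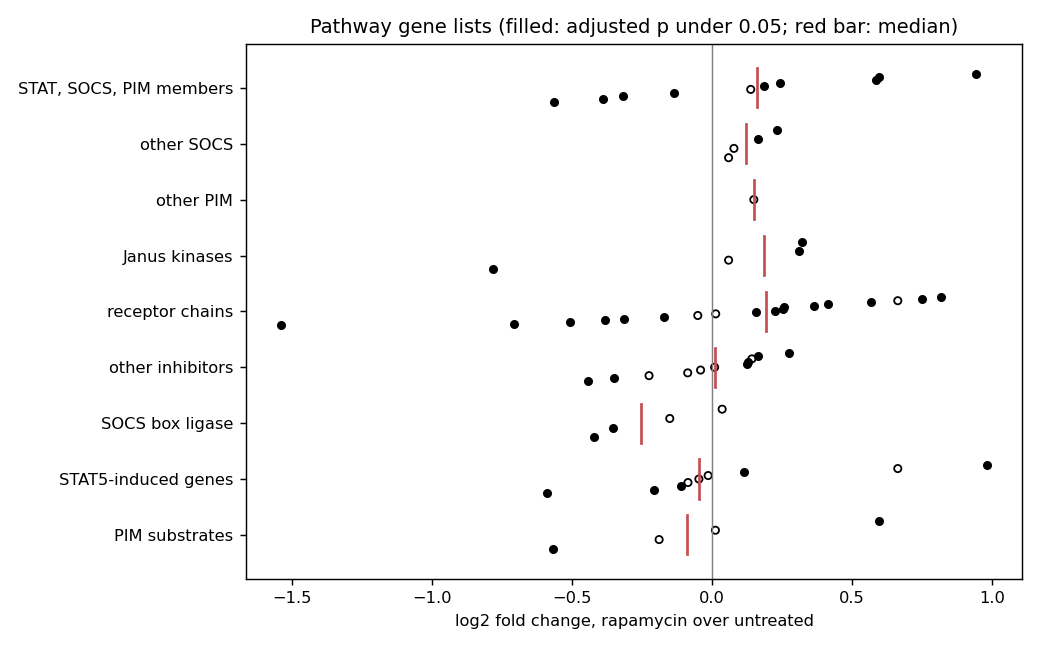
Log2 fold change, rapamycin over untreated (horizontal axis), of the tested genes of the members and of 8 other pathway lists. Each point is 1 gene, filled where the adjusted p was under 0.05, and red bars are list medians. The 10 genes spread from −0.56 for Socs1 to 0.94 for Pim1, and the receptor chains from −1.54 for Il12rb1 to 0.82 for Il7r.

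Of 11 other inhibitors of the pathway, 4 rose and 2 fell, with a median of 0.01, while the length correction gave 2 higher, 4 lower and a median of −0.09. These 6 calls are close to the 47.4% of all genes called. The tyrosine phosphatase genes Ptpn6 and Ptpn2 changed by −0.44 and −0.35 (length-corrected −0.41 and −0.25), and Ptprc, which encodes CD45, rose by 0.16 (length-corrected 0.04). The call of Ptpn2 was lost by limma on log2(TPM + 1) (−0.25, adjusted p = 0.0504). The phosphatase gene Ptpn11 rose by 0.13, a call lost with the length correction (−0.09), without untreated replicate 3 (0.12) and without rapamycin replicate 2 (0.084) or replicate 3 (0.105), and also with upper-quartile or no composition factors, DESeq2 and TPM. The other 2 that rose were named after their values were seen. They encode PIAS proteins, Pias1 (0.13, length-corrected 0.01) and Pias3 (0.28). The call of Pias1 was lost without untreated replicate 1 (0.096) or replicate 3 (0.12) and without rapamycin replicate 2 (0.098). That of Pias3 was lost without untreated replicate 1 (0.27), 2 (0.27) or 3 (0.28) and without rapamycin replicate 1 (0.26) or 2 (0.24). Both PIAS calls were also lost with upper-quartile or no composition factors, no filter and DESeq2, and that of Pias1 with the length correction.

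The SOCS box recruits a ubiquitin ligase of 4 listed parts. Elob and Eloc changed by −0.42 and −0.35, which the length correction brought to −0.03 and −0.05 and ended as calls, and Cul5 and Rnf7 did not pass the test. Among 10 genes that STAT5 is known to induce, 9 were tested, 2 rose and 3 fell, with a median of −0.05, also close to the share of all genes called. The length correction gave 1 higher, 2 lower and a median of 0.04. The survival gene Bcl2 rose from 190 ± 5.91 to 375 ± 11.8 CPM (0.98, length-corrected 0.71), while Bcl2l1, which encodes BCL-XL, fell from 13.9 ± 0.346 to 9.27 ± 0.284 CPM (−0.59). Mcl1 rose by 0.12 (length-corrected 0.04, not called) and Myc changed by −0.11 (length-corrected −0.06, not called). The call of Myc was lost without untreated replicate 1 (−0.11) or 3 (−0.08) and without rapamycin replicate 1 (−0.11), 2 (−0.11) or 3 (−0.11), and with DESeq2 and TPM. Osm, named after its values were seen, changed by −0.21, a call lost with the length correction (−0.18), without untreated replicate 2 (−0.17) or 3 (−0.22) and without rapamycin replicate 1 (−0.15) or 3 (−0.21), and with DESeq2 and TPM. Of 5 genes for PIM substrates 4 were tested. Cdkn1b, the cell cycle inhibitor p27, rose from 218 ± 8.12 to 330 ± 8.74 CPM (0.60), Bad, a pro-death BCL2 relative, changed by −0.57 (length-corrected −0.35, not called), and Eif4b and Cdc25a did not pass the test. With the length correction those 2 were called lower, at −0.07 and −0.26, although Eif4b in TPM was higher in every rapamycin library (246 against 214 TPM on average).

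The genes whose levels over the 6 libraries were most like those of Pim1, by Pearson's r of log2 CPM among the 5575 genes whose average log2 CPM was 5 or more, were Kmt2a, Huwe1 and Numa1, each with an r of 0.9998. Of those genes 1194 had an r above 0.95, and all 6 points share the split into 2 groups, so the measure separates genes little.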

How the data were processed

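Per the labels' protocols, libraries were made with the directional NEBNext Ultra II kit. STAR, RSEM and mm10 are named in the submitters' processing notes, while strand settings are not given in the sources used here. As the columns show per the file headers, the authors deposited RSEM expected counts, which divide shared reads between genes, TPM, which are scaled for effective length and depth, and gene lengths. Symbols and positions came from GENCODE vM21 (GRCm38, the assembly of mm10), and 55141 of 55487 identifiers had a symbol. Promoter sequences came from RefSeq (GRCm38.p6), which gave 14 windows for all 10 genes.

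Expected counts were rounded, passed through filterByExpr and normalised by TMM. The test was edgeR's quasi-likelihood one (robust, group as the only term), with Benjamini-Hochberg adjustment over 11950 genes and a threshold of 0.05. The SE is the log2 fold change over the square root of F. For the length correction, a natural spline on log2 length (5 degrees of freedom) was fitted to each library's deviations of log2 CPM from the mean, using genes whose average log2 CPM was 2 or more, and entered as offsets. Ratios and lengths were tested by exact permutation over libraries, two-sided, where p cannot go below 0.1. The fits were tested on simulated data. Alternatives were other scalings and filters, limma-voom, DESeq2, log2(TPM + 1) or log2(TPM + 0.1) in limma, the replicate number as a block and each library left out. All 10 genes were described, and from each list up to 4 called genes by smallest adjusted p, or 2 by level, and the 3 genes most like the member with the smallest p. Members and lists were chosen with earlier results of these data known, and the FOXO and interferon regulatory factor elements after the promoters were seen. Versions were edgeR 4.0.16, DESeq2 1.42.0 and limma 3.58.1 under R 4.3.3, and matplotlib 3.10.9 under Python 3.11.15. Some listed genes are not reported here.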

Additional observations from a re-analysis of the deposited data

How the results depend on the processing

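Under the 18 alternatives, Stat4, Stat6, Socs1, Socs3, Pim1 and Pim2 kept their direction and stayed called, and Cish stayed uncalled. With limma on log2(TPM + 1) or log2(TPM + 0.1), 2 of the 10 genes were lower in place of 4, since Stat3 and Stat5a were no longer called. Over all genes 1151 and 1137 were then lower, and higher calls made up 70.3% and 70.4% in place of 50.8%. That scale shifted the all-gene median by 0.10. The length correction took Stat5a plus Stat5b to −0.022 and turned Socs4 to −0.046, Socs7 to −0.117 and Ptpn11 to −0.086. Stat2 turned to 0.115 with log2(TPM + 1) and to 0.118 with log2(TPM + 0.1). None of these turned values passed the threshold.

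Replicate numbers are shared between the groups, but libraries with the same number did not deviate together (correlations across genes of −0.025, −0.009 and −0.031). The labels do not say whether they share more than a number, and these correlations cannot exclude it. With the replicate block, 5 of the 10 genes were higher and 4 lower, as without it, and over all genes 2850 were higher and 2743 lower. With the block and the length correction together, 4 were higher and 4 lower, Stat5a plus Stat5b was at −0.022, Socs4 at −0.045, Socs7 at −0.117 and Ptpn11 at −0.088. The floors of 3 counts cover counting error only, whereas the SEs include the spread between libraries. At 103 to 171 counts per library Cish was the member whose depth limited the comparison most.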
